A study of Mus musculus with 6 samples.

Results

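The nuclear receptors studied here are 33 genes of the mouse nuclear receptor superfamily, taken by symbol from a list of receptors active or recorded in liver, out of 25690 genes measured. All 33 symbols matched a row of the deposited table. RNA-seq of mouse hepatic tissue covered 3 wild type control libraries and 3 libraries in which FTO was knocked out in the liver. FTO demethylates N6-methyladenosine, the most common internal mark of messenger RNA. Age, strain, diet, Cre driver and whether each library is 1 animal are not stated in the labels, so the p-values below reflect only how far these libraries scatter, and that scatter may be technical. Values are FPKM, that is, fragments scaled to transcript length and to library depth, so levels of different genes can be set side by side.

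Nuclear receptors are transcription factors that bind DNA through zinc fingers and, in most cases, change their activity when a small lipid-soluble ligand binds. In hepatocytes they read fatty acids, bile acids, oxysterols, retinoids, thyroid hormone, steroids and foreign compounds. Many of them bind DNA only as a pair with a retinoid X receptor (RXR). Their usual DNA element holds the hexamer AGGTCA, alone or as a spaced repeat.

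Transcripts of 2 receptors fell in the knockout and none was called higher. These were Pparg, the fatty acid sensor that drives fat storage, at 2.86-fold lower, and Rxrg, the least abundant RXR, at 2.33-fold lower. Testing was limited to the 26 of the 33 genes whose mean across all 6 libraries reached 1 FPKM. It used limma on log2(FPKM + 1), and a call needed a p under 0.05 after Benjamini-Hochberg adjustment. Of those, 2 were called lower, 0 higher, and 24 had no call. Across all 10405 tested genes 1.11% were called higher and 1.65% lower, 2.76% in all. At an unadjusted p under 0.05, 2 of the 26 receptors were higher and 3 lower, against 18.7% of all tested genes in either direction. The median absolute log2 difference was 0.14 for the 26 receptors and 0.15 for all tested genes.

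The promoter windows of both receptors that fell are shown for reference, as RefSeq gives them in GRCm38.p6, the assembly of mm10. Each runs 5′ to 3′ on the plus strand toward an annotated start site, and stops short of it where an annotated exon comes first. Capitals mark matches on either strand to the hexamer AGGTCA, to the CCAAT box, to the TATA box motif TATAAA or to the GC box motif GGGCGG. A match on the other strand shows as its reverse complement.
Rxrg upstream start, chr1:167598112-167598361: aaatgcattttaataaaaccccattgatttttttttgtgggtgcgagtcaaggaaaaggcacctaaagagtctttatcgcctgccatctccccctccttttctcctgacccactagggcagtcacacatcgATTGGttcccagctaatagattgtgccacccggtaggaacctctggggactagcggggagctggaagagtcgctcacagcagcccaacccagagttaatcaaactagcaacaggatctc
Rxrg downstream start, chr1:167618015-167618264: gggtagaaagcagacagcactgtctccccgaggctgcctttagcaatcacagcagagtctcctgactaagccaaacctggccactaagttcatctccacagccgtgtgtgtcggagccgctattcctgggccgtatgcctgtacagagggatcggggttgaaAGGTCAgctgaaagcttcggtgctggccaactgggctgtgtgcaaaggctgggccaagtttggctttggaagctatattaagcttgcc
Pparg upstream start, chr6:115362099-115362291: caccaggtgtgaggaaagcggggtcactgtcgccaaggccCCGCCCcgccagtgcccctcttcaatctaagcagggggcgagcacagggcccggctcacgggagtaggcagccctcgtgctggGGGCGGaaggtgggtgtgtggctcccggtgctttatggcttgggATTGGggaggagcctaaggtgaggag
Pparg downstream start, chr6:115421816-115422065: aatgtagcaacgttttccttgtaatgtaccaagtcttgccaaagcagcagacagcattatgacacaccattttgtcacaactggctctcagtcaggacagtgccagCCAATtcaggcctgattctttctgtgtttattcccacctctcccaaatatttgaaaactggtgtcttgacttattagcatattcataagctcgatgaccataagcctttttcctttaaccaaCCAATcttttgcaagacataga

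The Pparg windows differ from each other. The upstream one held 66.8% G and C, 10 CpG dinucleotides, 2 GC boxes and 1 CCAAT, while the downstream one held 40.8% G and C, 2 CpG and 2 CCAAT. A further RefSeq start of Pparg lies just upstream and is not shown, since most of its window is exonic in GENCODE. The Rxrg windows held 49.2% and 55.2% G and C, and the hexamer AGGTCA stood once in the downstream one. Within 250 bases AGGTCA occurs in 14% of all 32851 RefSeq windows, CCAAT in 33.8% and GGGCGG in 32.7%. The upstream Pparg window shown has 193 bases, and at that length the shares were 27.3% for CCAAT and 23.5% for GGGCGG. These matches are common and describe the letters only. RefSeq held 48 windows for 30 of the 33 receptors, and AGGTCA occurred in 8 of them. This count uses all 250 bases upstream of each start, exonic or not. It includes both upstream starts of Pparg, where the hexamer lies in exonic bases that are not shown, as does a TATAAA of the Pparg start that is shown. The direct repeats AGGTCANAGGTCA and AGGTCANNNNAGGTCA occurred in 0 of these 48 windows, and in 0.0335% and 0.0152% of all windows. The FPKM values are per gene, so they do not say which start was used.

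Depth, inferred from the steps of low FPKM values, was 34140000 to 42530000 fragments per library. Fto itself read 6.67, 6.02 and 6.40 FPKM across wild type replicates 1 to 3 and 1.79, 3.83 and 2.66 FPKM in the knockout replicates (limma, log2 difference -1.0, adjusted p 0.0386), which checks the labels. Leaving out any library but knockout replicate 2 ended its call, at an adjusted p between 0.0636 and 0.147, and so did testing with no filter on low values (0.0975). Within its group, wild type replicate 3 differed most from the others. The median absolute log2 difference over the 26 receptors was 0.13 for the pair of wild type replicates 1 and 2. It was 0.24 and 0.2 for the pairs that hold replicate 3. Hepatocyte markers were abundant in every library, with a sum over 6 genes without albumin of 16000 to 18230 FPKM in wild type and 21360 to 23370 FPKM in knockout. In limma 0 of the 7 hepatocyte markers were called. Without adjustment 4 were higher and 0 lower at a p under 0.05, against 18.7% of all tested genes in either direction. For 4 every knockout library lay above every wild type library, against 11.5% of all tested genes. Albumin was left out because it is listed at 0 in 2 libraries.

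**Figure D1:**
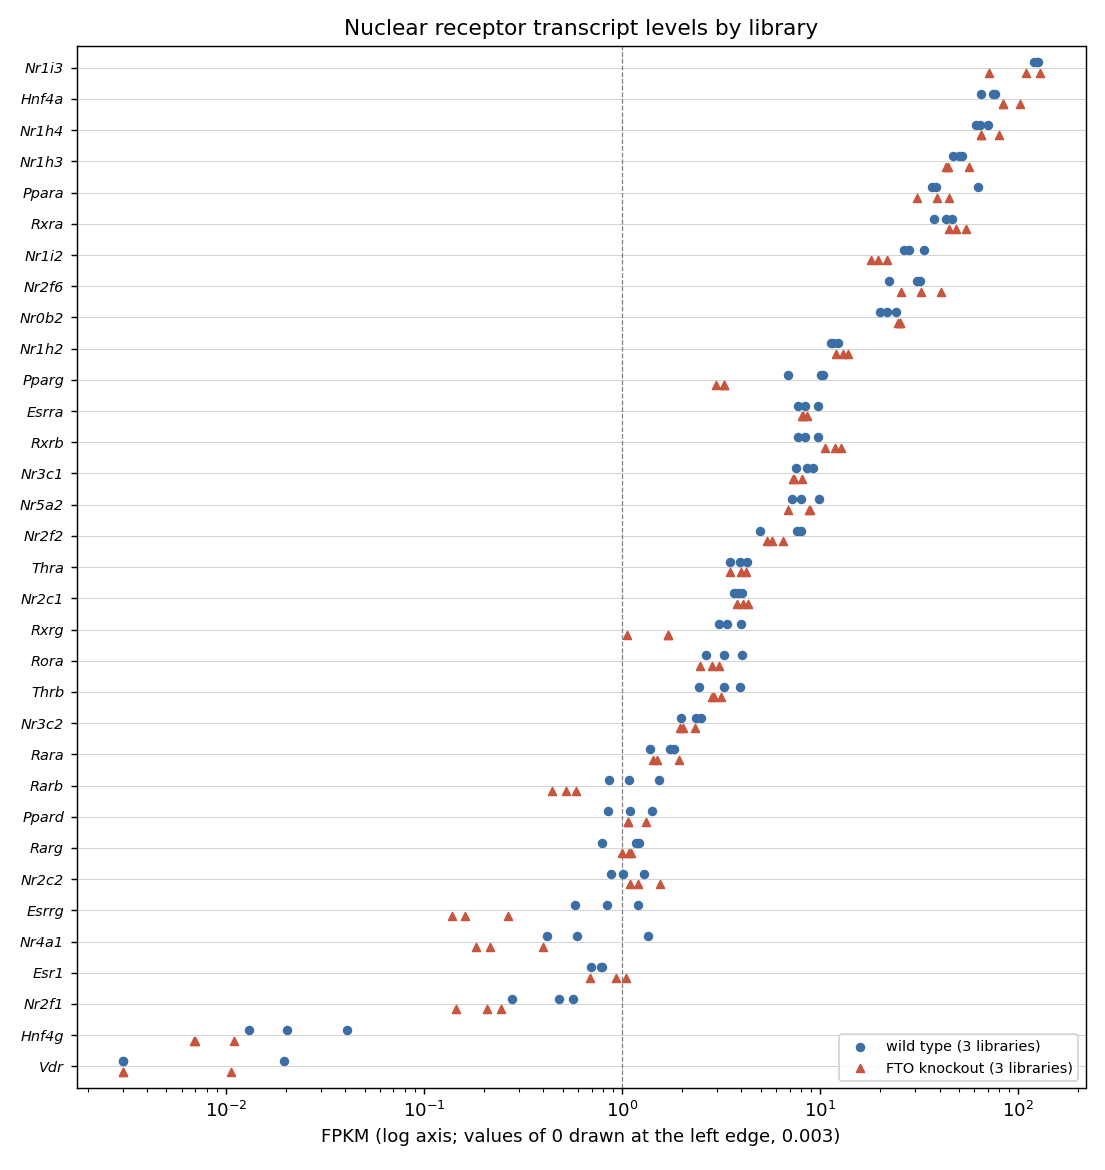
FPKM of the 33 nuclear receptor genes on a log axis, ordered by wild type mean, with circles for the 3 wild type libraries, triangles for the 3 FTO knockout libraries and a dashed line at 1 FPKM. Levels ran from Nr1i3 at 123 FPKM to Vdr near 0, and the knockout triangles of Pparg, Rxrg, Nr1i2, Rarb, Esrrg, Nr4a1, Nr2f1 and Hnf4g lay wholly to the left of the wild type circles, and those of Rxrb, Hnf4a and Nr0b2 wholly to the right. Of all tested genes 13.0% lay wholly lower and 11.5% wholly higher. Rarb, Esrrg, Nr4a1, Nr2f1 and Hnf4g were under the filter of 1 FPKM, where 8.46% of genes above 0 lay wholly lower.

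The receptors covered a wide range of levels in wild type liver. Nr1i3, which encodes the xenobiotic receptor CAR, was the most abundant at 123 ± 3.19 FPKM (SD, n = 3). Hnf4a, a factor of hepatocyte identity, followed at 71.8 ± 6.33 FPKM, Nr1h4 (the bile acid receptor FXR) at 65 ± 4.56, Nr1h3 (the oxysterol receptor LXR alpha) at 49.5 ± 2.67, Ppara at 45.7 ± 14.5 and Rxra at 42.1 ± 4.45. These 6 were above 30 FPKM, and 10 of the 33 were above 10 FPKM. The wild type ranges of Hnf4a and Nr1h4 overlapped, and that of Ppara overlapped both Nr1h3 and Rxra. Of the 32 pairs of neighbours in this order, 9 had ranges that did not overlap and 23 overlapped. Pparg was 11th in wild type and 18th in knockout, Rxrg 19th and 23rd, and Esrrg 28th and 31st. The sum over all 33 genes was 563 to 574 FPKM in wild type and 556 to 558 FPKM in knockout. Without Nr1i3 it was 437 to 449 FPKM and 429 to 486 FPKM, and the groups overlapped.

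Of the peroxisome proliferator-activated receptors, which sense fatty acids, Pparg fell and the other members were not called. Pparg (ENSMUSG00000000440, chromosome 6, 115360951 to 115490399 in mm10) read 6.85, 10.1 and 10.3 FPKM across wild type replicates 1 to 3. Across knockout replicates 1 to 3 it read 3.27, 2.98 and 3.26 FPKM. Every knockout library lay below every wild type library, and the knockout libraries were close together, with a coefficient of variation of 5.17%. The means were 9.09 ± 1.94 and 3.17 ± 0.164 FPKM (SD, n = 3 each), a limma log2 difference of -1.25 ± 0.15 (SE) at an adjusted p of 0.00723. The adjusted p was 0.0524 without knockout replicate 3 and 0.00198 to 0.0372 without any other library. The lowest Pparg value corresponded to about 216 fragments on the longest annotated transcript.

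Ppara, the receptor that induces fatty acid oxidation in fasting, was the main PPAR of these livers. Its levels were 38.2, 36.4 and 62.4 FPKM in wild type and 30.9, 38.7 and 44.8 FPKM in knockout, and the groups overlapped. Wild type replicate 3 was the highest of all 6. The log2 difference was -0.23 with a 95% interval of -0.76 to 0.3 (limma, adjusted p 0.654), and it was 0.01 without wild type replicate 3. Ppard, the widely expressed PPAR delta, was low at 1.12 ± 0.283 and 1.16 ± 0.143 FPKM (limma, adjusted p 0.935). Pparg made up 14.9%, 21.2% and 13.9% of the summed PPAR FPKM in the wild type libraries and 9.28%, 6.94% and 6.65% in the knockout libraries. This share did not overlap between groups, while the PPAR sum itself did, at 45.9 to 74.1 and 35.2 to 49.1 FPKM.

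Of the retinoid X receptors, the shared partners of many other receptors here, the least abundant one fell. Rxrg (ENSMUSG00000015843, chromosome 1, 167598384 to 167639623) read 3.36, 3.97 and 3.06 FPKM across wild type replicates 1 to 3 and 1.05, 1.71 and 1.71 FPKM in the knockout replicates. Knockout replicate 1 was the lowest, and the groups did not overlap. The log2 difference was -0.85 ± 0.15 (SE), at a limma adjusted p of 0.0272. This call was fragile. Left out in turn, wild type replicates 1 and 2 and knockout replicates 1, 2 and 3 gave adjusted p-values of 0.0551, 0.114, 0.062, 0.056 and 0.0819, and only without wild type replicate 3 (0.033) did the call hold. With no filter on low values the adjusted p was 0.0766 and Pparg was the 1 receptor called, against 0.949% of the 18965 genes then tested. The log2 difference stayed between -0.92 and -0.72 in these leave-outs, and the lowest value corresponded to about 77 fragments.

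The other retinoid X receptors were not called. Rxrb stood at 7.69, 9.78 and 8.37 FPKM in wild type and 11.9, 10.5 and 12.8 FPKM in knockout, so that every knockout library was above every wild type library. In limma its log2 difference was 0.41 (p 0.0125, adjusted p 0.143). Rxra, the main RXR of hepatocytes, stood at 46.1, 42.9 and 37.3 FPKM and at 44.8, 48.2 and 54.3 FPKM, with an adjusted p of 0.43. Rxrg supplied 5.88%, 7.0% and 6.28% of the summed RXR FPKM in wild type and 1.82%, 2.83% and 2.48% in knockout. The RXR sum was 48.8 to 57.2 FPKM in wild type and 57.7 to 68.7 FPKM in knockout, so the lower Rxrg was a small part of a total that was not lower.

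**Figure D2:**
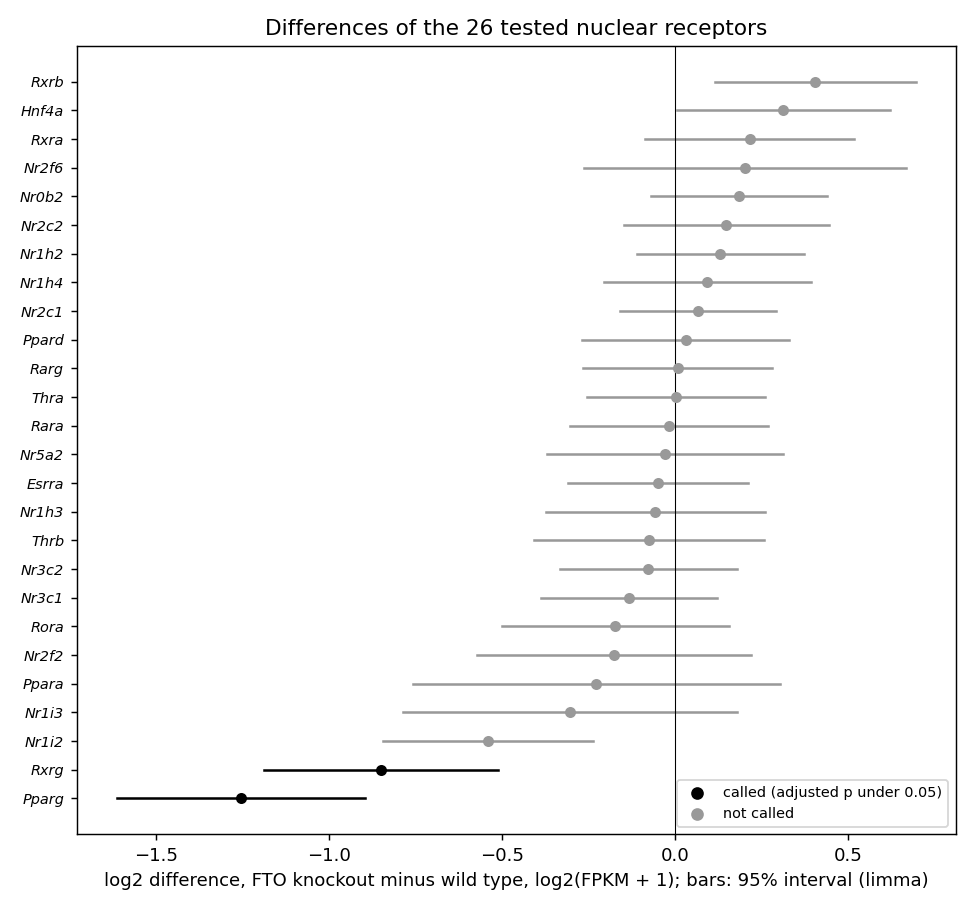
Log2 difference on the log2(FPKM + 1) scale, FTO knockout minus wild type, for the 26 tested receptors, with points for the estimate and bars for the unadjusted 95% interval of limma (n = 3 libraries a group). Black marks Pparg (-1.25) and Rxrg (-0.85), which were called, and grey the 24 that were not, whose intervals all lie between -0.84 and 0.7.

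Receptors of foreign compounds were among the most abundant. Nr1i2, which encodes the pregnane X receptor PXR, read 28.2, 26.5 and 33.6 FPKM across wild type replicates 1 to 3 and 18.1, 19.6 and 21.8 FPKM in the knockout replicates. The groups did not overlap. Its log2 difference was -0.54 with a 95% interval of -0.84 to -0.24, and the adjusted p of 0.0774 in limma missed the threshold. It passed with median ratio size factors (0.0487) and with quantile normalization (0.0404), and was 0.0848 to 0.228 with any library left out. Nr1i3 stood at 124, 120 and 126 FPKM in wild type and at 109, 128 and 71.2 FPKM in knockout, where replicate 3 was far below the other libraries (limma, adjusted p 0.492). Of the exon bases of Nr1i3, 74.9% are shared with Tomm40l on the opposite strand. Tomm40l, named here after its values were seen, was also lowest in knockout replicate 3, at 41 FPKM against 53.9 FPKM or more elsewhere. No source used here gives the strand setting of the counting, so reads of these genes cannot be told apart.

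The sensors of sterols and bile acids were not called. Nr1h4, the bile acid receptor FXR, measured 69.9, 64.2 and 60.9 FPKM in wild type and 79.4, 65 and 64.4 FPKM in knockout (limma, adjusted p 0.764). Nr1h3 was at 46.6, 51.7 and 50.4 FPKM and at 44.2, 43.1 and 56.5 FPKM (limma, adjusted p 0.876). Nr1h2, the widely expressed LXR beta, was at 11.7 ± 0.535 and 12.9 ± 0.941 FPKM. The groups of all these genes overlapped. Their 95% intervals for the log2 difference were -0.21 to 0.39, -0.37 to 0.26 and -0.11 to 0.37. Nr0b2 encodes SHP, a receptor without a DNA-binding domain that FXR induces and that represses others. It stood at 20.1, 24 and 21.7 FPKM in wild type and 24.5, 25.2 and 25.4 FPKM in knockout, a small gap without overlap (limma, log2 difference 0.19, adjusted p 0.418).

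Among factors of hepatocyte identity, Hnf4a stood at 76.6, 74.3 and 64.6 FPKM in wild type and at 83.4, 83.9 and 101.6 FPKM in knockout. Every knockout library was above every wild type library. In limma the log2 difference was 0.31 (p 0.0464, adjusted p 0.258). The summed hepatocyte markers were higher in the same libraries, and their part in this difference was not tested. Nr5a2, the LRH-1 receptor that takes part in bile acid and cholesterol genes, was at 8.35 ± 1.35 and 8.15 ± 1.14 FPKM (limma, adjusted p 0.946). Hnf4g, a paralog of Hnf4a, was at 0.0407 FPKM or less in every library, which at the lowest value is about 1 fragment. Its groups do not overlap, but no level can be read at that depth.

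Of the retinoic acid receptors, Rarb was lower in every knockout library. It read 0.856, 1.53 and 1.08 FPKM across wild type replicates 1 to 3 and 0.443, 0.519 and 0.586 FPKM in the knockout replicates. Its mean of 0.837 FPKM over the 6 libraries was just under the filter, so it has no test in the main comparison. With no filter its limma adjusted p was 0.136. Top2b on the opposite strand shares 34.1% of the exon bases of Rarb and, also named after its values were seen, was at 8.21 ± 0.704 and 6.88 ± 1.0 FPKM. It too was lower in every knockout library, at 7.6 FPKM or less against 7.66 FPKM or more, but was not called. So were 13.0% of all tested genes lower without overlap. With the strand setting not given, reads of Rarb and Top2b cannot be told apart. Rara and Rarg were at 1.65 ± 0.237 and 1.06 ± 0.234 FPKM in wild type and 1.62 ± 0.271 and 1.06 ± 0.0534 FPKM in knockout. Rarg (mean 1.06) and Ppard (1.14) lay just above the filter, and Rarb and Esr1 (0.821) just below.

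Estrogen-related receptors drive genes of mitochondrial respiration. Esrra measured 8.37, 9.74 and 7.74 FPKM in wild type and 8.08, 8.54 and 8.16 FPKM in knockout (limma, adjusted p 0.868). Esrrg (ENSMUSG00000026610, chromosome 1, 187608791 to 188214885) was far lower and had the largest ratio among the receptors above 0.1 FPKM. It stood at 1.21, 0.577 and 0.835 FPKM in wild type and at 0.162, 0.266 and 0.139 FPKM in knockout. The groups did not overlap and the mean was 4.62-fold lower. Its mean of 0.531 FPKM kept it out of the main comparison, and with no filter the adjusted p was 0.0886 in limma. The lowest library held about 30 fragments. Esr1, the estrogen receptor alpha, was at 0.758 ± 0.0558 and 0.884 ± 0.182 FPKM, with overlapping groups.

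**Figure D3:**
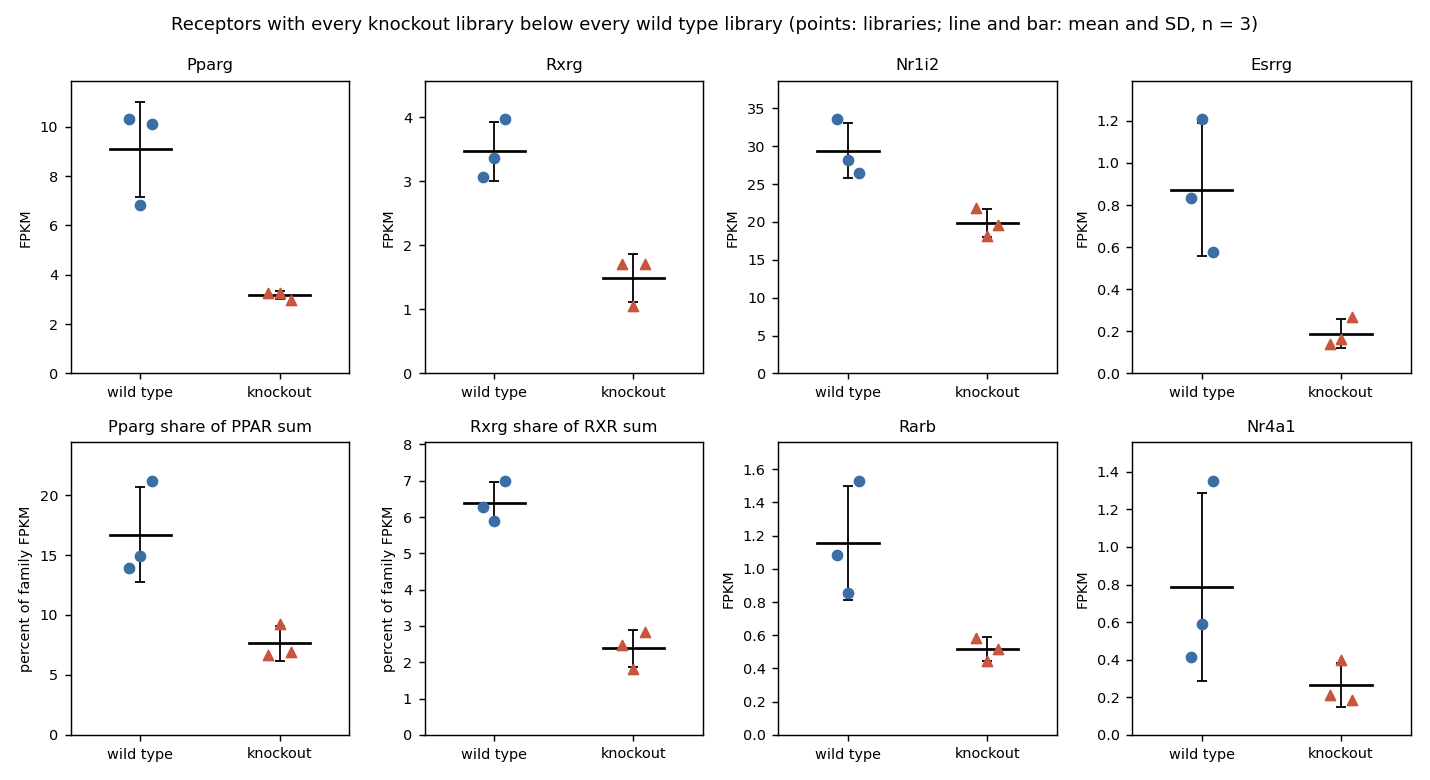
FPKM per library, on linear axes from 0, for Pparg, Rxrg, Nr1i2, Esrrg, Rarb and Nr4a1, and the percent of summed PPAR or RXR FPKM held by Pparg and Rxrg. Circles are wild type and triangles FTO knockout libraries, lines and bars are means and SD (n = 3). In each panel all knockout libraries lie below all wild type libraries, and only Pparg and Rxrg were called.

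The thyroid hormone receptors and the corticosteroid receptors were at like levels in both groups. Thra was at 3.88 ± 0.383 and 3.89 ± 0.369 FPKM and Thrb at 3.22 ± 0.749 and 2.96 ± 0.173 FPKM, with limma adjusted p-values of 0.994 and 0.838. Nr3c1, the glucocorticoid receptor, measured 9.20, 8.52 and 7.57 FPKM in wild type and 8.12, 7.33 and 7.31 FPKM in knockout (limma, adjusted p 0.572). Nr3c2, the mineralocorticoid receptor, was at 2.28 ± 0.273 and 2.11 ± 0.192 FPKM. Rora, an activator within the clock, was at 4.03, 3.28 and 2.64 FPKM and at 3.09, 2.86 and 2.48 FPKM (limma, adjusted p 0.571). Vdr, the vitamin D receptor, was listed at 0 in 4 libraries and at 0.0196 FPKM or less in the others.

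The orphan receptors of the COUP group, which repress by competing for the same elements, were led by Nr2f6 at 31.9, 30.6 and 22.3 FPKM in wild type. In knockout it stood at 40.6, 25.7 and 32.2 FPKM, so that the spread within each group covered the gap between them (limma, adjusted p 0.649). Ocel1 on the opposite strand, named after its values were seen, shares 54.4% of its exon bases and had its highest value, 7.5 FPKM, in the same library as Nr2f6, knockout replicate 1. Nr2f2 was at 8.01, 7.59 and 4.94 FPKM and at 6.49, 5.38 and 5.68 FPKM. Nr2f1 was low, at 0.477, 0.565 and 0.276 FPKM in wild type and 0.209, 0.145 and 0.244 FPKM in knockout, without overlap. Its adjusted p with no filter was 0.217 in limma. The testicular receptors Nr2c1 and Nr2c2 were at 3.84 ± 0.177 and 1.06 ± 0.215 FPKM in wild type and 4.07 ± 0.255 and 1.28 ± 0.244 FPKM in knockout, and neither was called. Mrps25 on the opposite strand shares 30.7% of the exon bases of Nr2c2. Nr2f6 and Nr3c2, which lie on the chromosome of Fto, are 19.9 and 14.1 megabases from it.

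Nr4a1, an immediate early gene, measured 0.588, 1.35 and 0.415 FPKM in wild type and 0.396, 0.183 and 0.214 FPKM in knockout. Wild type replicate 2 held the highest value, and the gap between the nearest libraries of the groups was small. With no filter the limma adjusted p was 0.333. Of the 7 receptors under the filter, 5 had all knockout libraries below all wild type libraries (Rarb, Esrrg, Nr2f1, Nr4a1 and Hnf4g) and 0 had the opposite. Among all genes above 0 and under the filter, 8.46% were lower without overlap, and 12.3% of those with a mean of at least 0.2 FPKM. Of the 26 tested receptors, 3 were lower without overlap (Pparg, Rxrg and Nr1i2) and 3 higher (Rxrb, Hnf4a and Nr0b2), against 13.0% and 11.5% of all tested genes.

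The remaining receptors of the superfamily were examined as a list of 16, of which 4 were tested and 0 called in limma, also 0 without adjustment at a p under 0.05. Nr1d1, the repressor REV-ERB alpha, measured 32.1, 23.3 and 22.6 FPKM in wild type and 34.3, 28.9 and 29.95 FPKM in knockout, and its exons share 263 bases with Thra on the opposite strand. Nr1d2 was at 16.6 ± 1.06 and 17.5 ± 1.77 FPKM. Of 24 tested coregulators, the proteins that receptors recruit to open or close chromatin, 0 were called in limma. Without adjustment 1 was higher and 2 lower at a p under 0.05. Their median log2 difference was -0.02, and that of all tested genes was 0.0 after rounding to 2 decimals.

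PPAR gamma targets, which mostly serve lipid storage, held 12 tested genes. Of these, 6 were lower, 1 higher and 5 not called, against 1.65% lower and 1.11% higher among all tested genes. The median log2 difference of the targets was -1.24. Cidea, a lipid droplet protein gene, measured 27.8, 35.8 and 36.7 FPKM in wild type and 0.199, 0.318 and 0.254 FPKM in knockout. Mogat1, a monoacylglycerol acyltransferase gene, fell from 17.1 ± 6.1 to 0.589 ± 0.137 FPKM (SD, n = 3 each), and Cd36, a fatty acid transporter gene, from 48.4 ± 2.94 to 9.52 ± 1.73 FPKM. Cfd, which encodes the protease adipsin, fell from 5.34 ± 1.1 to 0.951 ± 0.317 FPKM. The target that rose, Lpl, which encodes lipoprotein lipase, went from 1.19 ± 0.0593 to 2.6 ± 0.497 FPKM. Its call was lost with either of wild type replicates 1 and 2, or of knockout replicates 2 and 3, left out, and with no filter on low values. Membership in these lists comes from general knowledge and overlaps between lists. The lists were also written with earlier results of these data known. So a lower target is not evidence of which receptor acted on it, and the counts of called targets are not an independent result.

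Pparg is also an adipocyte gene, so the adipocyte markers are given beside it. Their summed level over 6 genes was 45.5 to 82 FPKM in wild type and 11.6 to 15.2 FPKM in knockout. Cidea, Cfd and Fabp4, which are all in the list of PPAR gamma targets too, made up nearly all of it. Without Cidea and Cfd the sum was 13.42 to 39.95 FPKM in wild type and 10.8 to 13.67 FPKM in knockout, with overlapping groups. Of the genes that define adipocytes, Adipoq was near 0 at 0.0825, 0.233 and 0.0248 FPKM in the wild type libraries and listed at 0 in every knockout library. Its groups did not overlap. Within wild type it was lowest in replicate 3, where Pparg was highest at 10.3 FPKM. Values this near 0 cannot show whether it moved with Pparg. Plin1 did not exceed 0.0312 FPKM in any library, and Lep 0.00844. Fabp4 was at 24 ± 14 and 12.3 ± 1.43 FPKM and was not called. Pparg is present in macrophages as well, and the summed level of 8 Kupffer cell and macrophage markers was 36.2, 59.3 and 113 FPKM in wild type and 118, 87.9 and 154 FPKM in knockout, with overlapping groups. In limma 0 of those 8 were called. Without adjustment 2 were higher and 0 lower at a p under 0.05. The part of adipocytes or macrophages in the lower Pparg was not tested. The 8 stellate cell markers summed to 66.8 to 95.3 FPKM and 61.4 to 90.7 FPKM, and the 7 endothelial markers to 30.6 to 72.4 and 41.3 to 56.8 FPKM, with 0 of either list called. The 6 cholangiocyte markers summed to 17.9 to 34.3 and 24.7 to 28.7 FPKM, with Cftr near 0, and the 5 T and B cell markers to at most 2.2 FPKM. In bulk tissue, fewer cells of a type and less RNA per cell cannot be told apart.

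PPAR alpha targets numbered 35 tested genes. Of these 7 were lower, 0 higher and 28 not called, against 1.65% lower and 1.11% higher among all tested genes. A log2 difference below 0 was found for 31 of the 35. The median of these targets was -0.32, while Ppara itself was not called. This list, too, was written with earlier results of these data known. Beside Cd36, Acot3, a peroxisomal thioesterase gene, measured 27.9, 20.5 and 27.5 FPKM in wild type and 7.31, 7.84 and 6.83 FPKM in knockout. Acaa1b, a peroxisomal thiolase gene, was at 1080, 1143 and 1385 FPKM and at 527, 391 and 492 FPKM. Aldh3a2, a fatty aldehyde dehydrogenase gene, was at 210, 202 and 227 FPKM and at 109, 97.6 and 116 FPKM. No knockout library reached the lowest wild type library for these genes. Without knockout replicate 1, or with no filter on low values, 4 targets were lower in place of 7.

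Targets of CAR and PXR, enzymes and transporters of foreign compounds, were tested for 22 genes, of which 2 were lower, 0 higher and 20 not called. Among all tested genes 1.65% were called lower. The median log2 difference of the 22 targets was -0.28, with 18 below 0. At an unadjusted limma p under 0.05, 9 were lower and 0 higher, against 18.7% of all tested genes in either direction. The same threshold gave 15 lower and 0 higher for PPAR alpha targets, and 7 lower and 1 higher for PPAR gamma targets. It gave 5 lower and 2 higher for LXR targets, and 7 lower and 0 higher for glucocorticoid targets. Aldh1a7, an aldehyde dehydrogenase gene, measured 128, 147 and 156 FPKM in wild type and 84.4, 90.5 and 86 FPKM in knockout (limma, adjusted p 0.0253). Abcc2, a canalicular export pump gene, was at 60.3, 64.1 and 67.7 FPKM and at 35.05, 44.2 and 41 FPKM (limma, adjusted p 0.0385). With wild type replicate 2, knockout replicate 1 or knockout replicate 3 left out, 0 of the CAR and PXR targets were called. With knockout replicate 2 left out or with no filter on low values, 1 was called. Aldh1a7 has a close paralog in Aldh1a1, so its reads may be split between them.

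**Figure D4:**
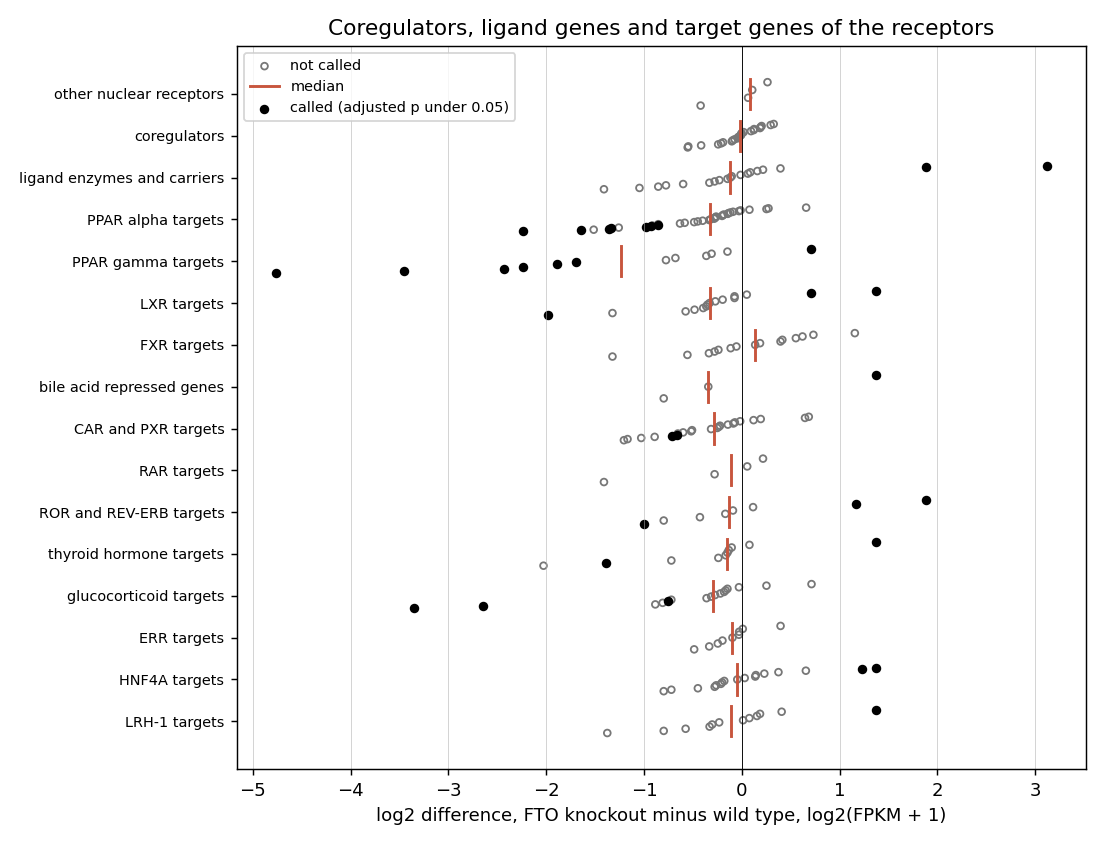
Log2 difference on the log2(FPKM + 1) scale for every tested gene of 16 lists of receptors, coregulators, ligand genes and receptor targets, with filled circles for called genes, open circles for genes not called and a bar for each list's median. The PPAR gamma targets have the lowest median of the lists, -1.24. The median of the coregulators is near 0, and single coregulators run from -0.55 (Smarca4) to 0.33 (Lpin1), none of them called. A gene in several lists, such as Cyp7a1 in 5 of them, is drawn in each. The lists were written with earlier results of these data known.

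The sterol receptor LXR had called targets in both directions, and the bile acid receptor FXR had none in the main comparison. Of all tested genes 2.76% were called. LXR targets held 15 tested genes, with 2 higher, 1 lower and 12 not called, at a median of -0.33. Scd1, the stearoyl-CoA desaturase gene, fell to 311 ± 133 FPKM from 1150 ± 144 FPKM, while Cyp7a1, whose enzyme starts the main route of bile acid synthesis, rose from 19 ± 1.22 to 51.5 ± 11.9 FPKM. The other that rose was Lpl. Without wild type replicate 2 or knockout replicate 3 no LXR target was called lower and 1 was called higher. Leaving out wild type replicate 1 or knockout replicate 2 also gave 1 higher, and no filter on low values gave 1 higher and 0 lower. In limma 0 of 15 tested FXR targets were called. Without adjustment 5 were higher and 1 lower at a p under 0.05, and 1 was called lower with either other normalization or robust empirical Bayes. Cyp7a1 was also the 1 called gene among 3 genes that bile acids repress and among 12 tested LRH-1 targets. Of 17 tested HNF4A targets, 2 were higher, Cyp7a1 and Apom. Apom, which encodes an apolipoprotein that carries sphingosine-1-phosphate, measured 82, 93.9 and 110.0 FPKM in wild type and 208, 235 and 228 FPKM in knockout (limma, adjusted p 0.00597), and was called with every library left out.

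Targets of hormone and clock receptors moved in both directions. Among all tested genes 1.65% were called lower and 1.11% higher. For glucocorticoid targets 16 genes were tested. The 3 that were called were all lower, and the median of the list was -0.29. These were the metal-binding genes Mt1 and Mt2 and the phosphatase gene Dusp1. Mt1 fell from 189 ± 99.6 to 27.7 ± 10.3 FPKM and Mt2 from 86.1 ± 54.4 to 6.59 ± 2.65 FPKM. Both lie on chromosome 8, starting at 94179082 and 94172664, near Fto at 91313525 to 91668439. Any part of that location in their difference was not tested. Dusp1 measured 7.19, 7.97 and 7.91 FPKM in wild type and 5.07, 3.49 and 3.94 FPKM in knockout. Without knockout replicate 3, or with no filter on low values, 0 glucocorticoid targets were called. With wild type replicate 2, knockout replicate 1 or knockout replicate 2 left out, 1 was called. Of 10 thyroid hormone targets, 1 was higher (Cyp7a1) and 1 lower. The lower gene was Me1, the malic enzyme gene, at 117, 117 and 193 FPKM in wild type and 48.4, 58.2 and 50.9 FPKM in knockout, and it was not called without knockout replicate 1 or 3, or with no filter on low values. Of 8 ROR and REV-ERB targets, 2 were higher and 1 lower. Avpr1a, a vasopressin receptor gene, measured 2.36, 1.76 and 0.753 FPKM in wild type and 4.21, 5.03 and 4.88 FPKM in knockout. Cyp7b1, an oxysterol hydroxylase gene, was at 96, 63.7 and 48.4 FPKM and at 303, 190 and 268 FPKM, and Insig2, which restrains sterol synthesis, fell from 325 ± 45.5 to 162 ± 27.1 FPKM. With wild type replicate 2, knockout replicate 1 or knockout replicate 3 left out, or with no filter on low values, 0 of the 8 were called, and without knockout replicate 2, 1 was higher and 0 lower. A pseudocount of 0.1 gave 1 higher and 1 lower. Of 9 tested ERR targets and 4 tested RAR targets 0 were called in limma. At an unadjusted p under 0.05, ERR targets had 1 higher and 1 lower, and RAR targets 0.

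Genes that make, break down or carry receptor ligands were tested for 19 members. Against 1.11% of all tested genes called higher, 2 of these were higher, with 0 lower and 17 not called. Cyp7b1 is 1 of the higher genes and Fabp5 the other. Fabp5 encodes a fatty acid carrier and measured 6.18, 2.88 and 14.2 FPKM in wild type and 34, 60.9 and 127 FPKM in knockout (limma, adjusted p 0.0359). Each knockout library lay above each wild type library, with a wide spread in both groups. Without wild type replicate 2 or knockout replicate 3, or with no filter on low values, 0 of the 19 were called higher, and 1 with wild type replicate 1, knockout replicate 1 or knockout replicate 2 left out, or with robust empirical Bayes.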

How the data were processed

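The deposited table holds FPKM per Ensembl gene for 6 libraries, made by the authors. TopHat2 2.1.0, HTSeq, Cufflinks 2.2.1 and mm10 are named, without roles, in the submitters' processing notes, and no source used here gives the annotation release. GENCODE M21 supplied symbols for 24853 rows, and coordinates. Groups follow the genotype label; replicate numbers follow sample order and pair nothing. limma 3.58.1 in R 4.3.3 (intensity trend, two-sided) was run on log2(FPKM + 1) for the 10405 genes whose mean reached 1 FPKM, and p-values were Benjamini-Hochberg adjusted over them. The log2(FPKM + 1) scale understates the change of low genes, while a fold divides the group means of FPKM. An exact 0 can be a failed estimate. Depth came from 964 genes with a single transcript, as the median of 49 to 60 values per library that read as 1 fragment in a window chosen with the values known; counts were not recovered, so no count model was used. Fragment numbers use the longest transcript. Tested on simulated data (10405 genes), the fit recovered known changes. How often the fit finds differences as small as those of the tested receptors without a call was not tested. Named genes are all 33 receptors, Fto and up to 4 called genes per list by smallest p. Named outside this rule are cell markers, 2 REV-ERB genes and genes sharing exons with a receptor (Tomm40l, Top2b, Ocel1, Mrps25), chosen with values known. Members and lists were chosen with earlier results of these data known. Alternatives were median ratio size factors, quantile normalization, no filter, a pseudocount of 0.1, robust empirical Bayes and leaving out each library. Motifs were searched on both strands. Of list genes, 237 of 239 were in the table.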

Additional observations from a re-analysis of the deposited data

How the results depend on the processing

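The count of receptors called lower was 2. It was 3 with median ratio size factors and with quantile normalization, and 1 with no filter on low values. With a library left out it ranged from 0 to 2, and 0 were called higher under every one of the 11 alternatives. Over all genes 115 were higher and 172 lower. Quantile normalization gave 180 higher and 225 lower, and no filter gave 87 higher and 93 lower. Leaving out a library gave 38 to 266 higher and 39 to 209 lower. Of the list genes 6 were higher and 20 lower. These were 2 and 9 under no filter, 5 and 23 with robust empirical Bayes, and 2 to 6 and 10 to 21 with a library left out. Of 286 values of the 26 tested receptors under these alternatives, 258 kept direction and side of the threshold, 7 lost a call (Pparg once, Rxrg in 6 settings), 2 gained it (Nr1i2) and 19 changed sign, all in 10 receptors that were not called. Rarg was -0.0229 with quantile normalization. With a library left out, Ppara ranged from -0.365 to 0.0148, Ppard from -0.0636 to 0.129, Rara from -0.1004 to 0.035, Rarg from -0.0897 to 0.0652, Nr1h3 from -0.178 to 0.0134, Nr1h4 from -0.00341 to 0.146, Thra from -0.0563 to 0.063, Thrb from -0.212 to 0.0477, Esrra from -0.116 to 0.0333 and Nr5a2 from -0.119 to 0.0819 on the log2 scale. The median of all tested genes was -0.00182, and 0.0017 and 0.0135 with the other normalizations. No paired analysis was possible because replicate numbers here follow sample order and pair no samples. Depth limits Vdr and Hnf4g, at about 3 fragments or fewer in every library.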
